A study of Homo sapiens with 7 samples.

Results

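The first hours of camptothecin exposure in HCT116, an established human colon carcinoma cell line, were described from 5 of the 7 arrays of the series, chosen by their labels. They are the cells given 10 µM camptothecin (CPT) for 1, 2 or 4 h (1 array each, n = 3) and the cells given its solvent alone, 0.1% DMSO, for 4 or 20 h (n = 2). The other 2 arrays, of cells kept in the same dose of CPT for 15 or 20 h, entered the fit for its estimate of the spread and the mean by which probe sets were kept, and also show where early values differed from later ones. RNA was amplified, labelled with biotin and read on the ExonHit Human Splice Array, a 1-colour array that covers most genes with many separate probe sets so that exons and junctions can be followed, and the study asked how poisoning of topoisomerase I acts on splicing. The deposited values are log2 values, and each gene was summarised by the median over those of its probe sets that averaged above 2.95 across the 7 arrays, where at least 3 did. Nothing in the labels says that the arrays came from separate cultures, and no time point was repeated, so the p-values set each difference only against variation among single arrays of unlike times (4 and 20 h in DMSO), which may be technical.

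Camptothecin holds topoisomerase I on the DNA strand it has nicked. Replication forks that meet such a complex break and stall, and RNA polymerase II that meets one is blocked, so transcripts of long genes and transcripts that turn over fast are those in which a block can be seen early. Replication-dependent histone genes supply the H1, H2A, H2B, H3 and H4 proteins that package new DNA. They are short, mostly without introns, and lie in clusters, and their mRNAs end in a stem-loop in place of a poly(A) tail and are known to be degraded fast when DNA synthesis is blocked.

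Among 16148 genes tested, 11 were lower (0.0681%) and 4 were higher (0.0248%) after 1 to 4 h of CPT than in DMSO, by limma with Benjamini-Hochberg adjustment at 0.05. Of the 11 lower genes 9 were replication-dependent histone genes, and the other 2 were EPC1 and SLC2A13. Before adjustment, 572 genes were lower (3.54%) and 575 higher (3.56%) at p under 0.05. All 3 CPT arrays lay below both DMSO arrays for 1459 genes (9.04%) and above both for 2061 (12.8%). The median difference over all genes was 0.03 on the log2 scale, and array medians of the gene values lay within 0.06 of the DMSO mean at 1, 2 and 4 h, against 0.34 and 0.30 at 15 and 20 h. Over all probe sets the 5 arrays correlated at r = 0.942 to 0.956 with one another and at 0.845 to 0.908 with the 15 and 20 h arrays. The number of genes at least 2-fold from the DMSO mean was 36 higher and 44 lower at 1 h, 82 and 92 at 2 h and 110 and 169 at 4 h. Between the 2 DMSO arrays, 176 genes were at least 2-fold higher and 97 lower at 20 h than at 4 h, and between the single arrays of 4 h of CPT and 4 h of DMSO 224 were higher and 281 lower. With group means, 51 genes (0.316%) were at least 1 log2 unit lower and 29 (0.18%) at least 1 higher.

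Epithelial markers were measured in all 5 arrays. EPCAM, the epithelial adhesion molecule, lay between 7.88 and 8.22 on the log2 scale in all 5, with the groups overlapping. Of 15 epithelial markers 0 passed the limma test and 0 had an unadjusted p under 0.05 (median 0.07), with KRT20, an intestinal keratin, at -0.30. KRT18, a keratin of simple epithelia, read 8.06 and 7.19 in DMSO and 8.17, 8.14 and 8.36 in CPT, a difference of 0.60 that was smaller than the gap between the DMSO arrays. Of the 9 leukocyte, 10 endothelial and 10 fibroblast markers 0 passed either, with medians of 0.14, 0.09 and 0.04, and 1 endothelial marker had an unadjusted p under 0.05. EPCAM and KRT18 read above most of their list, whose median level in DMSO was 4.35. That level was 4.69 for leukocyte, 3.75 for endothelial and 3.80 for fibroblast markers, and 4.33 over all genes tested. In bulk RNA, fewer cells of a type and less RNA per cell cannot be told apart.

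Linker and core histone genes held the largest differences. H1-2 encodes a linker histone and lies in the cluster on chromosome 6. Its gene value was 7.96 and 7.68 in the DMSO arrays and 4.53, 4.59 and 4.68 after 1, 2 and 4 h of CPT. The groups did not overlap, the full difference was already present at 1 h, and the 3 CPT arrays lay close together. H1-2 fell by 3.21 on the log2 scale (SE 0.18, adjusted p = 8.21e-05, limma), a 9.28-fold difference, and all 5 of its kept probe sets were lower in every CPT array than in both DMSO arrays.

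H2B genes followed. H2BC18 read 10.73 and 10.87 in DMSO and 7.65, 7.32 and 6.54 after 1, 2 and 4 h, the largest difference of any gene tested (-3.63, SE 0.28, adjusted p = 0.000361, limma). H2BC15 read 8.82 and 8.75 in DMSO and 5.03, 4.98 and 5.68 in CPT (-3.56, SE 0.33, adjusted p = 0.00153). H2BC4 read 10.91 and 10.86 in DMSO and 8.87, 7.52 and 7.47 in CPT (-2.93, SE 0.36, adjusted p = 0.0200). In H2BC18 and H2BC4 the 1 h array was the highest of the CPT arrays, and in H2BC15 the 4 h array was. H2BC21 and H2BC11, read by 37 and 33 probe sets, were lower by 2.51 and 2.49, and in H2BC21 the DMSO values of 8.26 and 8.31 stood against 5.59, 5.95 and 5.79. Of their probe sets 22 of 37 and 23 of 33 lay below both DMSO arrays in every CPT array, and 1 in each gene lay above, where 10.3% of all kept probe sets lay below and 11.9% above.

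In the H2A family H2AC6 read 9.88 and 10.09 in DMSO and 6.83, 6.26 and 7.01 in CPT (-3.28, SE 0.24, adjusted p = 0.000278, limma). H2AC25 read 8.55 and 8.88 in DMSO and 7.11, 6.37 and 7.0 in CPT (-1.89, SE 0.24, adjusted p = 0.0200). The 1 H4 gene that passed, H4C8, read 9.46 and 9.17 in DMSO and 7.08, 7.03 and 6.56 in CPT (-2.42, SE 0.31, adjusted p = 0.0224). In these 3 genes every CPT array lay more than 1 log2 unit below both DMSO arrays. Without either DMSO array H2BC15, H2BC4, H2AC25 and H4C8 no longer passed. H2BC4 was also lost without the CPT array of 2 h, and H4C8 without that of 2 h or of 4 h.

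**Figure D1:**
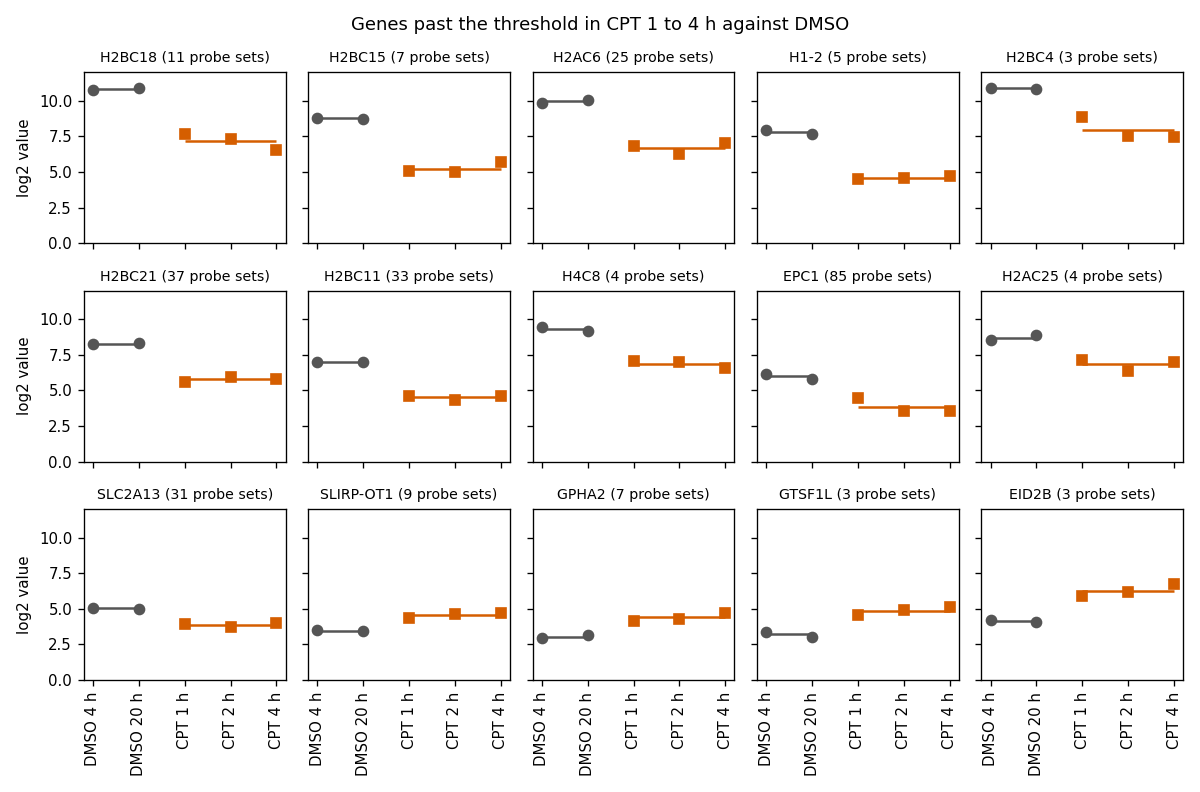
Log2 values of the 15 genes past the threshold, 1 panel each, with DMSO arrays as grey circles (4 and 20 h), CPT arrays as orange squares (1, 2 and 4 h) and lines at the group means. In the 11 lower genes, from H2BC18 (-3.63) to SLC2A13 (-1.15), and in the 4 higher ones, no CPT array overlaps a DMSO array.

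Of 69 listed replication-dependent histone genes 64 were on the array, but only 18 had at least 3 kept probe sets, because many are read by a single probe set. In these 18 genes 9 were lower and 0 higher, 13 had all CPT arrays below both DMSO arrays, and the median difference was -1.70, against 0.03 over all genes. By array the median was -1.44 at 1 h, -2.07 at 2 h and -1.74 at 4 h, and the comparison at the shared time, 4 h of CPT against 4 h of DMSO, gave -1.64. Between the 2 DMSO arrays the median of the list differed by 0.03. The requirement of 3 probe sets was therefore lowered to 1, a choice made after seeing the data, which brought the genes tested to 17203.

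With at least 1 kept probe set, 45 genes were lower (0.262%) and 5 were higher (0.0291%), and 39 of the 45 were among 63 measured histone genes. Of these 63, 53 had all CPT arrays below both DMSO arrays, where 9.48% of all genes did, and the median difference was -2.11. The other 1010 genes read by 1 or 2 probe sets had a median of -0.02, and 3 of them were lower, which were BLID, IFNA5 and H2BC12L, an H2B-like gene on chromosome 21 that was not on the list. BLID read 5.01 and 5.74 in DMSO and 2.56, 2.32 and 2.47 in CPT, the latter below the 2.95 used to keep probe sets. Probe sequences were not used here, and histone genes of a family have near-identical copies, so how far probe sets of one gene read another was not tested.

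The families differed in how many of their members passed. H2A genes were lower in 13 of 15 measured, with a median of -2.76, and H2B genes in 14 of 18, with a median of -2.50. H4 genes were lower in 5 of 13 (median -1.51), H3 genes in 5 of 11 (median -0.96) and H1 genes in 2 of 6 (median -1.30). Median levels in DMSO had the same order as the median differences, at 9.24 for H2A, 8.06 for H2B, 7.83 for H4, 5.58 for H1 and 5.27 for H3. The shares that passed did not have this order, since a larger share passed in H3 than in H4 or H1. Families that read lower in DMSO thus had less room to fall on this scale. The difference between families itself was not tested, nor was the part of the DMSO level in it. Single probe sets with the largest differences were those of H2AC17, which read 9.07 and 8.96 in DMSO and 5.16, 5.33 and 5.91 in CPT (-3.54, SE 0.24), and H2BC14, which read 9.78 and 9.80 in DMSO and 6.53, 6.52 and 5.96 in CPT (-3.45, SE 0.22). H3C12, an H3 gene, read 6.31 and 6.57 in DMSO and 3.15, 3.18 and 3.42 in CPT (-3.19, SE 0.17). For these 3 genes the CPT values were all at least 2 log2 units below the lower DMSO value. H4C5 had a smaller difference but little spread, at 11.64 and 11.87 in DMSO and 10.18, 9.88 and 10.03 in CPT (-1.72, SE 0.14, adjusted p = 0.000619, limma).

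Some members stood apart. H4C15 was the one histone gene whose CPT arrays all lay above DMSO (5.88 and 6.05 in DMSO, then 6.07, 6.62 and 7.09), with a difference of 0.63 and an adjusted p of 0.716 by limma. H3C1 read 5.28 and 5.27 in DMSO and 4.48, 5.75 and 6.45 in CPT, so its arrays overlapped. H2AC11, H2BC1 and H3C3 had differences of -0.03, -0.09 and -0.15 and overlapping arrays. H2BC5 read 5.28 and 5.30 in DMSO and 4.78, 4.32 and 5.06 in CPT, a difference of -0.57 that did not pass (adjusted p = 0.722, limma).

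**Figure D2:**
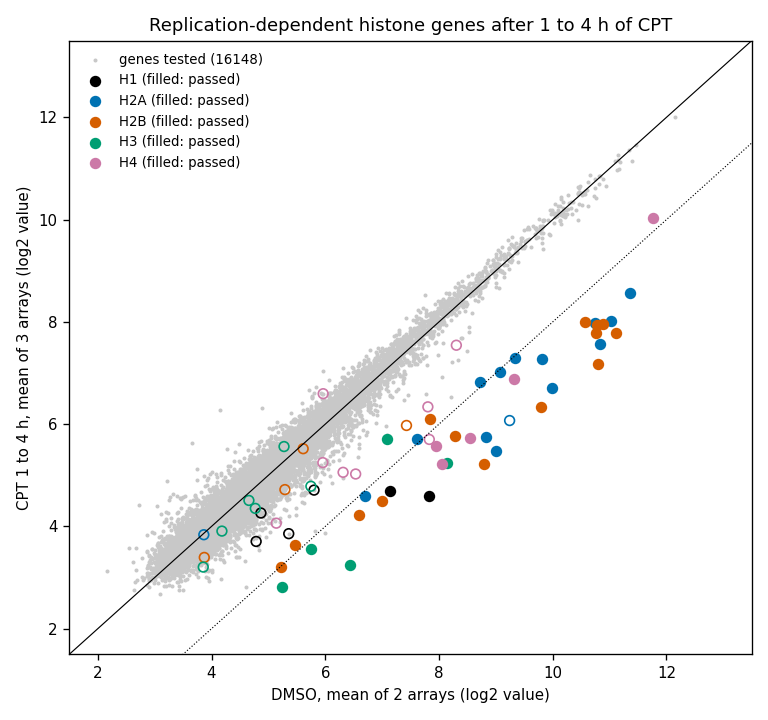
Mean log2 value over the 3 CPT arrays (vertical) against the mean over the 2 DMSO arrays (horizontal) for the 16148 genes tested (grey) and for 63 replication-dependent histone genes with at least 1 kept probe set, coloured by family and filled where they passed the test (39 of 63). The solid line marks equal values and the dotted line a 4-fold lower value. Filled points lie between 1.36 and 3.63 log2 units below the solid line.

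H2A and H2B genes often stand head to head around a shared promoter, so both transcripts start close to each other. RefSeq starts on GRCh38.p14 gave 13 such head-to-head pairs of listed histone genes with 193 to 978 bases between the starts, 12 of them with both genes measured, and RefSeq gives H3C4 and H2AC7 the same start, so H2BC7 counts in 2 pairs. In 9 of the 12 pairs both genes were lower and in 3 only 1 of them passed. Taken singly, 13 of 15 measured H2A genes and 14 of 18 H2B genes were lower. Whether the 2 genes of a pair went together more often than those shares give was not tested. H2BC11 was lower by 2.49 while H2AC11 across 247 bases read -0.03. In the other 2 pairs H2AC25 passed beside H2BC26 (-1.45, adjusted p = 0.0574, limma), and H2BC9 (-2.58) passed beside H3C7 (-0.42). The stretches between the starts of 3 pairs in which both genes were lower are shown because each serves a gene described above, followed by the 250 bases before the start of H1-2, from the RefSeq promoter table of GRCh38.p14. Capitals mark matches on either strand to the octamer ATTTGCAT, to the CCAAT box, to the TATA box (letters TATAAA) and, in H1-2, to the H1 box (letters AAACACA). The pairs are printed on the plus strand, H2BC4 and H2AC6 at chr6:26123927-26124171, H2BC21 and H2AC20 at chr1:149886683-149886917 and H2AC14 and H2BC14 at chr6:27814778-27815021, with the gene named first starting leftward. H1-2 at chr6:26056471-26056720 is printed on the minus strand, its own.
H2BC4 and H2AC6: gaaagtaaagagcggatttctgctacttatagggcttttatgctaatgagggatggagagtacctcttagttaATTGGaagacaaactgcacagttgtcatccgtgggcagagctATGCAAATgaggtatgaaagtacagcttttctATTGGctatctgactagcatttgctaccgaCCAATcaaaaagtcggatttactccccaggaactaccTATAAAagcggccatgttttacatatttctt
H2BC21 and H2AC20: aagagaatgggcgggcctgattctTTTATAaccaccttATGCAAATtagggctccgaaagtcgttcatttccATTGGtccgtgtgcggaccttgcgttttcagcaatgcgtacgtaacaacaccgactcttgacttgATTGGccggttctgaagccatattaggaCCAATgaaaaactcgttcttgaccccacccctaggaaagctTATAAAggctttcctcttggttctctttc
H2AC14 and H2BC14: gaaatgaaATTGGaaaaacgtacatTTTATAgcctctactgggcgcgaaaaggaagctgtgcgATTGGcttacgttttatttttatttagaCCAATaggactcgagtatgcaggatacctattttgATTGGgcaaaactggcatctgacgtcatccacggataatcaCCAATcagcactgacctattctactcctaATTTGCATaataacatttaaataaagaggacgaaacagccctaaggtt
H1-2: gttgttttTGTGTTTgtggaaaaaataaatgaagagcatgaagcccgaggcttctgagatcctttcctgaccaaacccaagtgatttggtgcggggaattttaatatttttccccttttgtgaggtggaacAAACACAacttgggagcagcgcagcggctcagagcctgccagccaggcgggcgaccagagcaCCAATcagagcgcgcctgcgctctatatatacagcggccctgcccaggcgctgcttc

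The octamer, the element bound by the Oct-1 factor in H2B promoters, was found in 21 of 38 promoters of the lower histone genes (37 of the 39 genes had an entry, 1 with more than 1 start), or 55.3%, against 1.63% of all 35116 promoters of 250 bases. It was present in 12 of 14 promoters of lower H2B genes, 8 of 12 of lower H2A genes, 1 of 5 of lower H3 genes and 0 of 5 of lower H4 genes. Histone genes that did not pass held it in 5 of 25 promoters. These 2 groups differed in family, since 13 of 15 measured H2A genes and 14 of 18 H2B genes were lower. In H4, H3 and H1 these numbers were 5 of 13, 5 of 11 and 2 of 6. How far family made up the contrast in octamers was not tested. In most head-to-head pairs the windows of 250 bases overlap, so 1 octamer can be counted for both genes. The promoters counted are therefore not independent, and the H2A and H2B counts share stretches. CCAAT was found in 33 of the 38 (86.8%) and in 21 of the 25 of histone genes that did not pass (84%), against 32% of all promoters, and in 0 of the 5 lower H4 promoters. TATAAA was found in 23 of the 38 (60.5%) and 17 of the 25 (68%), against 10.7% of all. AAACACA was found in both lower H1 genes, in 4 of the 25 and in 4.82% of all promoters. Each motif was searched on both strands, none of the searched words contains another, and a match is a description of the letters in this window only.

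No gene for histone variants, histone mRNA processing or histone chaperoning passed the limma test. Replication-independent variants, whose mRNAs are mostly polyadenylated, gave 0 of 11 past the threshold (1 higher and 1 lower at unadjusted p under 0.05) and a median of 0.07. H2AJ, an H2A variant, read 3.39 and 3.93 in DMSO and 4.51, 5.26 and 7.14 in CPT, higher with each longer exposure, with a difference of 1.98 and an adjusted p of 0.483 by limma. H2AX, the variant phosphorylated at DNA breaks, read 5.73 and 6.25 in DMSO and 5.14, 5.32 and 5.25 in CPT (-0.75, adjusted p = 0.439). Of 20 genes for histone transcription and histone mRNA processing 0 passed (1 higher and 2 lower at unadjusted p under 0.05, median -0.09). SLBP, which binds the histone stem-loop, read 7.88 and 7.90 in DMSO and 7.82, 7.62 and 7.75 in CPT (-0.16, adjusted p = 0.924). NPAT, the coactivator of histone loci, read 5.46 and 5.14 in DMSO and 5.07, 4.40 and 4.40 in CPT (-0.67, adjusted p = 0.604), and CASP8AP2, found with it in histone locus bodies, differed by -0.65. Among 17 histone chaperones 0 passed (2 lower at unadjusted p under 0.05, median -0.01), with CHAF1A, the large subunit of chromatin assembly factor 1, at -0.55 and HIRA, a chaperone of H3.3, at -0.45.

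Of 48 DNA replication genes 0 passed, 6 were higher and 0 lower at unadjusted p under 0.05, the median was 0.17, and 13 had all CPT arrays above DMSO (12.8% of all genes did). Of all genes, 3.56% were higher and 3.54% lower at that p. The median of this list differed by -0.20 between the DMSO arrays, 20 h minus 4 h, and by 0.14 between 4 h of CPT and 4 h of DMSO. GINS2 and GINS4, subunits of the replicative helicase, were the farthest from 0 at 0.70 and 0.65 (adjusted p of 0.470 and 0.445, limma). In 26 replication checkpoint and break signalling genes 0 passed (1 each way at unadjusted p under 0.05, median 0.03), with ETAA1, an activator of the ATR kinase, at 5.52 and 5.10 in DMSO and 4.48, 4.35 and 4.13 in CPT (-0.99, adjusted p = 0.532) and HUS1, part of the checkpoint clamp, at 0.62. The drug's target TOP1 read 7.90 and 7.78 in DMSO and 7.78, 7.77 and 7.90 in CPT (-0.02, SE 0.19). In the list of 12 topoisomerase and repair genes 0 passed, also at unadjusted p under 0.05, with TOP2A at -0.25 and TDP1, which removes trapped topoisomerase I, at -0.19.

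**Figure D3:**
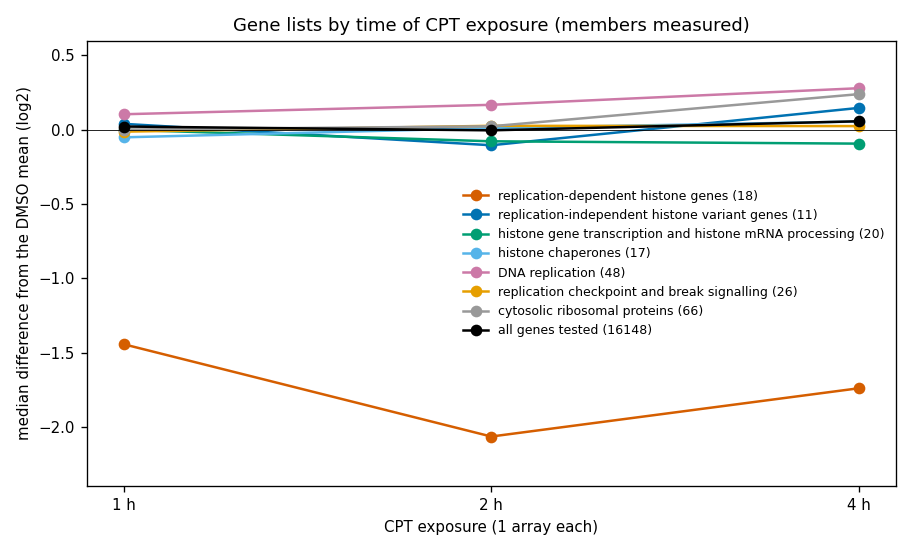
Median difference from the mean of the DMSO arrays (log2, vertical) for 7 gene lists and for all genes tested, at 1, 2 and 4 h of CPT (1 array each), with the number of measured members in brackets. The histone list stands at -1.44, -2.07 and -1.74, and each of the other lists shown stays within 0.3 of 0.

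EPC1 encodes a scaffold subunit of the NuA4 histone acetyltransferase. It read 6.17 and 5.82 in DMSO and 4.50, 3.58 and 3.52 after 1, 2 and 4 h of CPT, lower at 2 and 4 h than at 1 h. EPC1 fell by 2.13 (SE 0.29, adjusted p = 0.0288, limma), and 62 of its 85 kept probe sets lay below both DMSO arrays in every CPT array, with 0 above. Leaving out either DMSO array, or the CPT array of 2 or of 4 h, ended the call, as did quantile re-normalization (adjusted p = 0.0522), centring (0.0687), probe sets above the 0.75 quantile (0.159) and no filter (-0.78, adjusted p = 0.573, limma). Of the 18 NuA4 genes EPC1 alone passed, and the median was 0.09. At unadjusted p under 0.05, 3 were lower and 1 was higher. All CPT arrays lay below DMSO in 4, EPC1 among them, and above DMSO in 3, where 9.04% and 12.8% of all genes did. MBTD1 and EPC2, other members of the complex, read -0.96 and -0.72 with no overlap between groups, and were chosen for naming after their values were seen. SLC2A13, a myo-inositol transporter, read 5.03 and 5.03 in DMSO and 3.95, 3.70 and 4.00 in CPT (-1.15, SE 0.16, adjusted p = 0.0295). Only 11 of the 31 kept probe sets of SLC2A13 lay below in every array, and its call was lost when any array but the 1 h one was left out. The difference of SLC2A13 was -0.19 with probe sets above the 0.75 quantile, -0.53 with the mean of its probe sets and -0.40 without the filter, none of which passed.

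The 4 higher genes rested on few probe sets. EID2B, an EID family inhibitor of differentiation, read 4.24 and 4.08 in DMSO and 5.92, 6.17 and 6.73 in CPT (2.12, SE 0.29, adjusted p = 0.0278, limma). Of its 3 kept probe sets, however, 1 was above and 1 below DMSO in every CPT array. The single-probe-set differences ran from -0.34 to 2.12 with a median of -0.32, so the gene value followed 1 probe set. With the mean of its probe sets EID2B differed by 0.49 (adjusted p = 0.438, limma). GTSF1L read 3.39 and 3.05 in DMSO and 4.57, 4.93 and 5.13 in CPT (1.66, SE 0.22, adjusted p = 0.0224), with 1 of 3 probe sets above in every array. GPHA2, a glycoprotein hormone subunit, read 2.93 and 3.15 in DMSO and 4.15, 4.31 and 4.74 in CPT (1.36, SE 0.19, adjusted p = 0.0305), with 3 of 7 above. SLIRP-OT1, a transcript that overlaps SLIRP, read 3.51 and 3.42 in DMSO and 4.35, 4.65 and 4.70 in CPT (1.10, SE 0.16, adjusted p = 0.0425), with 6 of 9 above. In each of the 4 genes the 4 h array was the highest, and 0 of them passed once either DMSO array or the CPT array of 2 or of 4 h was left out, or once arrays were centred. With probe sets kept by their mean over the 5 arrays, GPHA2 (1.21, adjusted p = 0.179, limma) and SLIRP-OT1 (0.83, adjusted p = 0.205) did not pass, and the DMSO values of GPHA2 lay near the 2.95 used to keep probe sets.

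A further 37 lower and 24 higher genes had an unadjusted p under 0.05, a difference of at least 1 and no overlap between groups, and their values are given without a call. The first of the lower ones was PDE4B, a cAMP phosphodiesterase, which read 5.90 and 5.76 in DMSO and 4.64, 3.64 and 3.44 in CPT (-1.92, adjusted p = 0.0590, limma). PDE4B passed when single probe sets were allowed (adjusted p = 0.0466, limma). Its values were the same in that fit and its unadjusted p was larger (0.000134 against 6.21e-05, limma). Only the adjustment, over a set of genes with more calls, made PDE4B pass. BCOR, a corepressor of BCL6, read 4.83 and 4.75 in DMSO and 3.77, 3.92 and 3.60 in CPT (-1.02, adjusted p = 0.0959). The linker histone gene H1-3 read 5.31 and 5.40 in DMSO and 4.47, 3.51 and 3.60 in CPT (-1.50). The others among the first 10 were IL2 (-1.79), ZNF14 (-1.07), NBPF14 (-1.06), PLEKHA5 (-1.15), LOC440084 (-1.19), CTF1 (-1.05) and TSC22D1 (-1.11). IL2 kept 3 of 27 probe sets and LOC440084 3 of 34. Their CPT values, 3.02, 2.61 and 2.79 for IL2 and 2.97, 2.93 and 3.01 for LOC440084, lay near the 2.95 used to keep probe sets. How far that filter shaped these 2 differences was not tested.

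Among the higher ones ADRA1D, an adrenergic receptor, came first (3.53 and 3.49 in DMSO, then 4.67, 4.37 and 4.67; 1.06, adjusted p = 0.0509, limma). ADRA1D also passed when single probe sets were allowed (adjusted p = 0.0268, limma). As for PDE4B, its values were the same there and its unadjusted p was larger (7.01e-05 against 5.05e-05, limma). GADD45B, a stress-response gene, read 4.05 and 3.69 in DMSO and 4.75, 4.89 and 5.32 in CPT (1.11, adjusted p = 0.183). LY6G5C was 1.37 higher, MORN2 1.23, C20orf144 1.19, SLC10A1 1.07, LAGE3 1.07, RBM45 1.04 and MLLT11 1.04, and CLEC14A, which is also on the list of endothelial markers, was 1.26 higher with 3 probe sets. The other 9 endothelial markers lay between -0.17 and 0.23. MLLT11 read 2.40 and 2.71 in DMSO, below the 2.95 used to keep probe sets. The 37 lower genes had a median span of 50.3 kb and the 24 higher ones of 9.95 kb, against 28.8 kb over all genes tested.

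Direction went with gene span over the whole table. Of 1660 genes under 5 kb, 7.23% were higher and 3.25% lower at unadjusted p under 0.05, and of 4667 genes of 5 to 20 kb these shares were 5.42% and 2.27%. At 20 to 50 kb (4147 genes) the shares were close, at 3.18% and 2.87%. Of 2541 genes of 50 to 100 kb, 1.61% were higher and 4.37% lower, of 1720 genes of 100 to 200 kb 0.872% and 6.51%, and of 1255 genes over 200 kb 0.637% and 4.86%. The short classes therefore held more higher than lower genes and the 3 long classes the reverse. Medians of the differences were small beside this, from 0.09 under 5 kb to -0.06 over 200 kb.

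Across 15990 genes with a span, Spearman's rho between span and difference was -0.23, a description over genes that share the same 5 arrays and are not independent. The rank correlation of span with the difference between the 2 DMSO arrays, 20 h minus 4 h, was -0.09. From the shortest to the longest class the medians of the DMSO pair were 0.15, 0.12, 0.05, 0.04, 0.04 and 0.13, and those of CPT against DMSO were 0.09, 0.08, 0.03, -0.01, -0.04 and -0.06, so both fell over the first 5 classes. Spans come from the current RefSeq gene table and serve only for ranking.

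**Figure D4:**
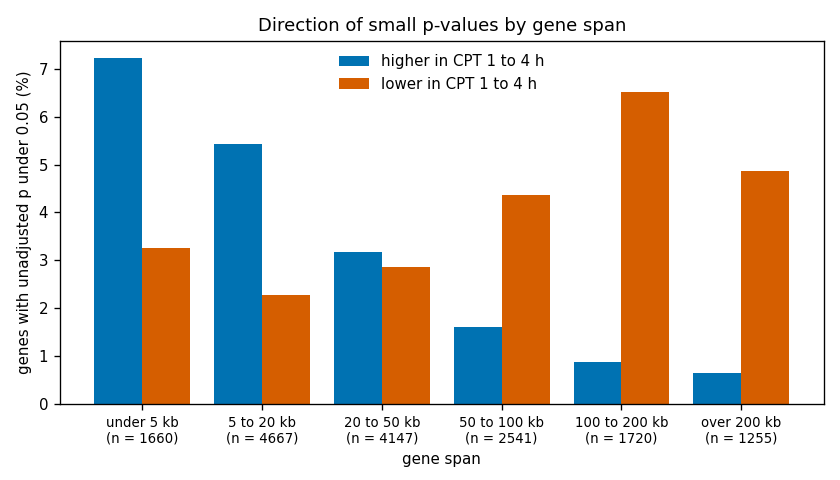
Share of genes with unadjusted p under 0.05 (percent, vertical) that were higher (blue) or lower (orange) in CPT 1 to 4 h than in DMSO, in 6 classes of gene span with the number of genes tested. Higher genes fall from 7.23% under 5 kb to 0.637% over 200 kb, and lower genes reach 6.51% at 100 to 200 kb.

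Short-lived and regulatory transcripts gave values in both directions and no call. Of 53 immediate early and other short-lived regulators 0 passed, with a median of 0.18, and at unadjusted p under 0.05 there were 6 higher and 5 lower. MYC, the growth-promoting transcription factor, read 8.07 and 7.48 in DMSO and 7.44, 5.68 and 6.63 in CPT (-1.19, SE 0.42, adjusted p = 0.610, limma), lowest at 2 h. CCN2, a secreted matricellular protein, read 3.59 and 2.94 in DMSO and 4.26, 3.98 and 5.46 in CPT (1.30, SE 0.39, adjusted p = 0.490). Numbered zinc finger genes (441 measured) gave 0 calls, a median of -0.08, and 47 lower against 8 higher at unadjusted p under 0.05, where 3.54% and 3.56% of all genes were. ZNF292 and ZNF22 were the farthest from 0 at -1.28 and -1.12.

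The p53 targets, which the drug is known to raise through DNA damage signalling, gave 0 of 29 past the threshold and a median of 0.05, with 1 higher at unadjusted p under 0.05. CDKN1A, the p21 inhibitor of cyclin-dependent kinases, read 5.27 and 5.67 in DMSO and 5.45, 5.27 and 5.69 in CPT (0.00, SE 0.22). TRIAP1 and ZMAT3 were the farthest from 0, at 0.62 and 0.50 (adjusted p of 0.680 and 0.704, limma). Of 25 transcription elongation genes 0 passed (1 lower at unadjusted p under 0.05, median -0.03), with CCNT2, a cyclin of P-TEFb, at -0.95 and CDK13, a kinase of the polymerase tail, at -0.54. Of 66 cytosolic ribosomal protein genes 0 passed (3 higher and 2 lower at unadjusted p under 0.05, median 0.05), with RPS29 at -0.45 and RPL35A at -0.39.

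Splicing genes, on which the series' title centres, had no gene-level call in the first hours. Of 27 SR proteins and their kinases 0 passed (2 lower at unadjusted p under 0.05, median -0.01), with CLK1, a kinase of SR proteins, at 5.80 and 5.15 in DMSO and 4.71, 4.00 and 4.36 in CPT (-1.12, SE 0.26, adjusted p = 0.287, limma) and SRSF4 at -0.48. Of 44 hnRNP and other regulators 0 passed (2 each way at unadjusted p under 0.05, median 0.05), with RBM5 at -0.86 and PTBP1 at 0.56. Of 55 core spliceosome and exon junction genes 0 passed, 7 were higher and 0 lower at unadjusted p under 0.05, 16 had all CPT arrays above DMSO, 0 had all below, and the median was 0.20. Of all genes, 3.56% were higher at that p, 12.8% had all CPT arrays above and 9.04% all below. LSM5, part of the U6 snRNP ring, read 6.20 and 5.72 in DMSO and 6.64, 7.32 and 7.18 in CPT (1.09, adjusted p = 0.439), and SF3A2 differed by 0.61. The median of this list differed by -0.25 between the DMSO arrays, 20 h minus 4 h, and by 0.11 between 4 h of CPT and 4 h of DMSO.

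Individual probe sets were then set against their gene, as the log2 value of the probe set minus the median of the kept probe sets of that gene, for genes with at least 5. Of 944048 probe sets in 15600 genes, 125 were higher (0.0132%) and 95 lower (0.0101%) relative to their gene after 1 to 4 h of CPT. They fell in 168 genes, 138 of them with a single such probe set. Their absolute differences ran from 1.10 to 6.03 with a median of 3.18, and in simulated data 1% of changes of size 2 were recovered, so changes of that size would mostly be missed. With eBayes without the trend on intensity only 1 of the 220 calls was left, so nearly all of them depended on that setting. Probe-set names end in a letter whose meaning is not given in the sources used here. Letter Y held 71 of the calls in 33108 probe sets (0.214%) and Z 40 in 41239 (0.097%), and the other letters had at most 0.0298%.

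WAC, a regulator of histone H2B ubiquitination at transcribed genes, had the largest change. A Y probe set of WAC stood 2.55 and 2.63 above its gene in DMSO and 3.77, 2.97 and 3.57 below it after 1, 2 and 4 h of CPT (-6.03, SE 0.39, adjusted p = 0.000156, limma). A D probe set of WAC went from 2.75 and 2.62 above to 2.69, 2.53 and 1.66 below (-4.98, SE 0.42, adjusted p = 0.00124). A B probe set of WAC moved the other way, from 3.25 and 2.78 below the gene to 0.74 below and 0.27 and 0.22 above (2.93, adjusted p = 0.0292). The 3 probe sets had no overlap between groups, and the gene value itself was 0.56 lower. With eBayes without the trend at most 1 of these 3 calls was left. The Y and D calls held when any 1 array was left out, and the B call ended once either DMSO array, or the CPT array of 2 or of 4 h, was taken away.

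Further large changes, each of 1 probe set, were lower in HIPK2 (-5.24), UGGT1 (-5.17), CYP24A1 (-4.88), KITLG (-4.81), SETD5 (-4.81), MET (-4.74) and WNK1 (-4.68), all of letter Y. In the opposite direction an E probe set of NOP56, a core protein of box C/D snoRNPs, went from 4.35 and 4.12 below its gene in DMSO to 0.41 below and 0.83 and 1.68 above in CPT (4.94, SE 0.46, adjusted p = 0.00330, limma). The NOP56 probe set's own mean log2 value went from 2.31 to 7.40. Without either DMSO array none of these 8 passed.

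Some genes changed at several probe sets. ANKRD36 had 7 lower ones of its 252, all of letter Y, with differences from -3.57 to -4.20. LUC7L3, a U1 snRNP-associated splicing factor, had 5 lower ones of 130. The one with the smallest difference went from 2.25 and 2.51 above in DMSO to 0.81, 0.52 and 0.79 above in CPT (-1.67, SE 0.19, adjusted p = 0.00728, limma) and the largest difference was -2.96. EIF5, a translation initiation factor, had 4 higher ones of 96, with differences from 2.85 to 4.38. In EIF5 a B probe set went from 2.45 and 2.40 below the gene to 0.18 below and 0.76 and 1.30 above, higher with each longer exposure. CACNA1A, a calcium channel gene, had 4 higher ones of 194 (2.36 to 3.97). All calls in ANKRD36, LUC7L3 and EIF5 ended without either DMSO array or the CPT array of 2 h, and of the 4 in CACNA1A 0 were left without DMSO 4 h and 2 without DMSO 20 h or the CPT array of 2 h. H2AC6 had 5 higher ones of 25, and the values of those probe sets stayed close to DMSO (3.37 against 3.54 for the first of them) while the gene fell, so the relative difference came from the gene. H2BC21 and SULF2 also had 4 higher ones each.

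**Figure D5:**
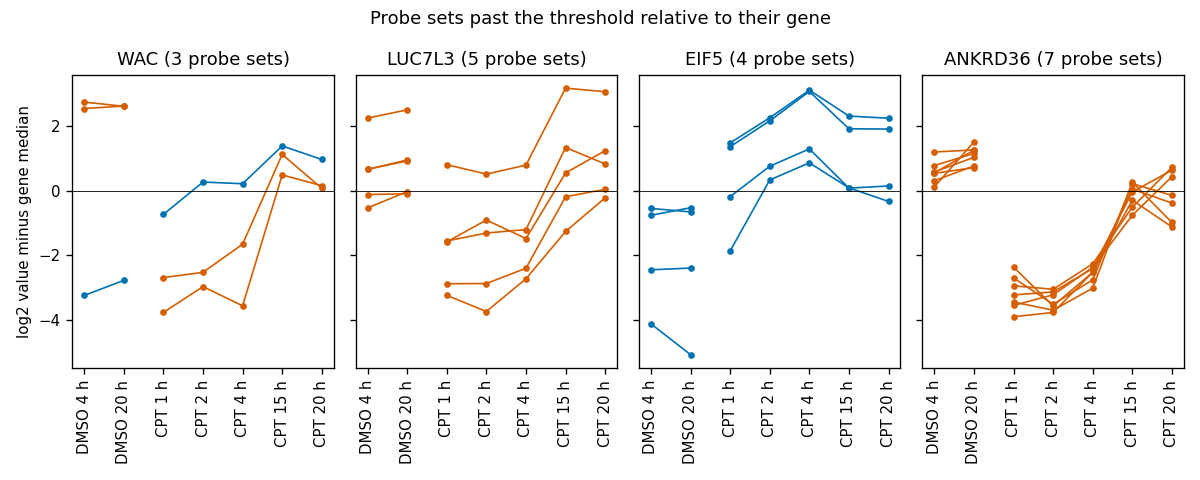
Log2 value minus the gene median for the probe sets past the threshold in WAC (3), LUC7L3 (5), EIF5 (4) and ANKRD36 (7), 1 line per probe set, over the 2 DMSO arrays and the CPT arrays at 1, 2, 4, 15 and 20 h. Probe sets lower after 1 to 4 h are orange and higher ones blue, and the WAC Y probe set, at 2.55 and 2.63 in DMSO, reads 0.49 and 0.16 at 15 and 20 h.

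Genes of the 3 splicing lists held 6 of these calls in 11817 probe sets (0.0508%), against 214 in 932231 (0.023%) in other genes. They were 1 probe set each of SRPK1 (-3.36), RBFOX2 (-3.21), HNRNPDL (-2.89), CLK1 (3.25), SRSF5 (2.88) and SNRPF (2.62), so 3 moved each way. The CLK1 probe set stood 4.21 and 3.58 below its gene in DMSO and 1.04, 0.13 and 0.76 below it in CPT. The gene read 5.80 and 5.15 in DMSO, so there the probe set itself read below the level used to keep probe sets. The CLK1 gene value differed by -1.12 between CPT and DMSO, so part of the relative difference of 3.25 came from the gene. With 6 calls the shares rest on few probe sets, and their difference was not tested.

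The histone values at 15 and 20 h differed from those at 1 to 4 h. Of the 18 histone genes with at least 3 probe sets 13 were higher and 1 was lower at the later times by the same limma fit, where 36.2% of all genes were higher and 19% lower, and the median over the list was 0.91. With arrays centred on the gene median that balance over all genes turned to 2152 higher and 3631 lower, and 8 of the 18 histone genes were higher and 1 lower (median 0.69). With at least 1 probe set 39 of 63 were higher and 3 lower (33.8% and 17.4% of all genes), and the median of the list was 0.91 higher. H2BC5 had the widest gap, at 7.61 and 8.31 against 4.32 to 5.06 in the early arrays (3.24, adjusted p = 9.16e-05, limma), above its DMSO values.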

How the data were processed

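Gene expression was measured in 7 samples with 1 array each. What the authors deposited is a log2 value for every probe set on every array. The submitters' processing notes list RMA, Partek 6.08 and R 2.11.1 without saying what each did. The genome build is not given in the sources used here, and the number of arrays limits the precision. Of 2108940 probe sets, 207651 (9.85%) had no gene in the platform annotation, and 17412 of 17646 gene identifiers were matched to RefSeq on GRCh38.p14.

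Kept probe sets were those with a mean over 7 arrays above the median of all, 2.95. Gene values (median of at least 3 kept probe sets) were fitted on all 7 arrays by limma 3.58.1 under R 4.3.3 (lmFit, then eBayes using a trend on intensity, 1 mean per group of DMSO, CPT 1 to 4 h and CPT 15 to 20 h, 4 residual degrees of freedom) and Benjamini-Hochberg adjustment at 0.05. Relative values needed at least 5 kept probe sets. In simulated data over 16148 genes, 43% of changes of 1 and 93% of changes of 2 on the log2 scale were recovered. For relative values over 944048 probe sets these were 0% and 1%. Promoter searches and figures were handled with Python 3.11.15, pandas 2.3.3 and matplotlib 3.10.9.

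Named are all genes past the threshold, the next 10 in each direction by unadjusted p with a difference of at least 1 and no overlap, per list up to 4 passing members or else the 2 farthest from 0, 6 fixed genes (TOP1, TDP1, MYC, CDKN1A, SLBP and NPAT), the 10 largest relative changes and the 5 genes with most of them. Other genes are named after their values were seen, as are single histone genes from the fit with at least 1 probe set. The members and lists were chosen with earlier results of these data known. Alternatives were the mean for the median, other filters, quantile re-normalization, centring, eBayes without trend or robust, the 5 arrays only, and each array left out.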

Additional observations from a re-analysis of the deposited data

Results flagged for a closer look

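Several of the genes that differed after 1 to 4 h of CPT differed again between those arrays and the ones at 15 and 20 h, by the limma contrast of the later minus the earlier CPT arrays, for which the DMSO arrays enter the estimate of the spread (adjusted over 16148 genes, of which 36.2% were higher and 19% lower at the later times). EID2B, whose probe sets differed in direction at 1 to 4 h, was a further 2.07 higher at 15 and 20 h (adjusted p = 0.00042), at 7.96 and 8.72. H1-2 was 0.96 higher than at 1 to 4 h (adjusted p = 0.00267), H2AC6 0.84 (adjusted p = 0.0168), H2BC11 1.18 (adjusted p = 0.000809) and H2BC21 0.92 (adjusted p = 0.00351). H1-2 stood at 5.58 and 5.54 there, between its early CPT and its DMSO values. H4C8 went the other way, with a difference of -1.82 (adjusted p = 0.00147), to 5.64 and 4.50. Over the 18 histone genes with at least 3 probe sets, 13 were higher and 1 was lower at 15 and 20 h than at 1 to 4 h. The median of all genes was itself 0.32 higher at the later times, and those 2 arrays correlated less with the rest.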

How the results depend on the processing

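No paired analysis was possible because the labels give no replicate numbers. H1-2 passed under all 17 alternatives in which it was refitted, and H2AC6, H2BC11, H2BC18 and H2BC21 under all but the one without a filter on dim probe sets. H2BC15 passed under 14 of 17, H2AC25 under 13 of 16, H2BC4 under 11 of 15 and H4C8, lost also under centring, under 10 of 16. Without that filter 1 gene was lower and 0 higher (1172 of 16724 at unadjusted p under 0.05), 1 histone gene passed, the histone median was -0.24 and EID2B turned to -0.39, since dim probe sets enter each median. With the mean of the probe sets 23 genes were lower. With probe sets above the 0.75 quantile 0 genes were higher (990 of 14159 had an unadjusted p under 0.05 in either direction), the histone median was -2.82, the NuA4 median turned to -0.031 and 20 relative probe sets were lower. With at least 5 probe sets 2 genes were higher and the histone median was -2.50. The row mean over 5 arrays, eBayes without the trend and the 5 arrays alone each gave 2 higher genes. Centring gave 0 higher genes (1174 at unadjusted p under 0.05 in either direction) and 2152 genes higher and 3631 lower at 15 and 20 h than at 1 to 4 h. Relative changes numbered 0 higher and 1 lower without the trend.

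Leaving out 1 array gave 0 to 10 higher and 5 to 22 lower genes, 5 to 10 histone genes, 2681 to 6128 genes higher at 15 and 20 h than at 1 to 4 h, and 13 to 148 higher and 3 to 88 lower relative probe sets. For genes lower in CPT than in DMSO, and for histone genes among them, the lowest counts came without a DMSO array or the 2 h array (7 lower). The highest counts of both came without the 1 h array. Relative calls fell to 17 higher and 6 lower without DMSO 4 h, 16 and 3 without DMSO 20 h, 13 and 7 without the 2 h array and 34 higher without the 4 h CPT array. Without either late array 2 genes were higher.

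With at least 1 probe set per gene, 45 genes were lower, 39 of them histone genes, and the histone median was -2.11. Leaving out 1 array there gave 1 to 11 higher genes, 14 to 60 lower genes and 14 to 41 histone genes. Lower genes numbered 26 without DMSO 4 h, 14 without DMSO 20 h, 60, 37 and 35 without the 1, 2 and 4 h CPT arrays and 45 without either late array, and histone genes among them 20, 14, 40, 35, 32 and 41. In all 7 of these fits 14 histone genes passed, among them H1-2, H2AC6, H2AC17, H2BC14, H3C12 and H4C5. The 7 arrays limit every count, and the cause of these changes was not tested.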
